A study of Homo sapiens with 9 samples.

Results

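Transcript levels of 39 genes that act in homologous recombination or in the Fanconi anaemia pathway were followed in Jurkat cells, a human T-cell acute lymphoblastic leukaemia line, with and without an edit of EZH2, the catalytic subunit of the Polycomb complex that methylates histone H3 at lysine 27. The genes were chosen by symbol from the deposited expression table, and all 39 were found among its 26228 rows. The 9 libraries comprised 3 of the unedited line (WT), 3 of the CRISPR/Cas9-edited line KO1 and 3 of the edited line KO2. Every group was grown in the same complete RPMI medium with serum and antibiotics, and RNA was taken during exponential growth with no further treatment given in the labels. The study's title names replication stress and CHK1 inhibition, and no inhibitor is named for these libraries. Each genotype was 1 line, described as biological triplicates, so the spread between libraries is the spread between cultures of a line. An edit and any other difference between the lines cannot be told apart.

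Homologous recombination repairs a broken chromosome, or a stalled replication fork, by copying the intact sister strand. The break is trimmed to single-stranded DNA, BRCA2 and its partners prepare that strand, the strand invades the sister, and the joined molecules are then dissolved or cut apart. The Fanconi proteins act on crosslinks between the strands: a core complex attaches ubiquitin to FANCD2 and FANCI, which then bring in nucleases and the recombination proteins. Dividing leukaemia cells use this machinery mainly during and after DNA replication, when a sister strand is present.

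All 39 genes had an FPKM (fragments scaled by transcript length and by library size) of at least 1 in 3 or more libraries and were tested with 11737 genes in all. FPKM sums per library ran from 417737 to 439704 and were lowest in the KO1 libraries, and relative depth read from the steps between low values ran from 0.966 to 1.16. Pearson correlations across tested genes were 0.989 to 0.993 within groups, 0.931 to 0.953 between an edited and a WT library, and 0.975 to 0.982 between KO1 and KO2 libraries. EZH2 itself was listed at 77.2 ± 2.54 FPKM in the unedited libraries, 106 in KO1 (SD 2.501) and 89.5 ± 1.40 in KO2 (SD, n = 3 each), and a value summed over the transcript does not check an edit. The 10 T-lineage markers summed to 1601 to 1698 FPKM in WT, 1381 to 1521 in KO1 and 1604 to 1639 in KO2. Against WT, 3 of them were higher and 7 lower in KO1, and 3 were higher and 4 lower in KO2, where CD2 was at a mean of 4.38 FPKM beside 35.8 in WT and 90.6 in KO1. Of 5 B-lineage markers PAX5 was at 0 and MS4A1 was below 0.1 FPKM. CD79A ran from 19.1 to 58.2 FPKM and was highest in the KO1 libraries, and BLK, at means of 2.18 FPKM (WT), 1.14 (KO1) and 0.398 (KO2), was highest in WT. The 5 myeloid markers summed to at most 0.444 FPKM and the erythroid pair to at most 1.08. Among the 5 epithelial and stromal markers only PECAM1, at 10.9 to 15.4 FPKM, was above 2.

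WT levels of the 39 genes, which can be ordered because FPKM are per length, had a median of 15.5 FPKM beside 12.6 over all tested genes. FANCI (70.6 ± 1.30 FPKM) and RBBP8 (61.4 ± 4.93) were highest, followed by FANCD2 (44.8 ± 2.30), RMI2 (38.4 ± 2.91) and RAD54L (37.4 ± 1.42). RMI2 and RAD54L did not differ beyond their spread. At the bottom stood FANCC (4.27 ± 0.532 FPKM) and SLX4 (4.26 ± 0.314), which did not differ beyond their spread, and FANCF (2.21 ± 0.207). The summed level of the 39 genes ran from 798 to 836 FPKM in WT, 817 to 877 in KO1 and 783 to 823 in KO2, so each edited group overlapped WT. Levels of RAD50, XRCC3, RAD54L, RAD54B, EME1, MUS81, FANCA, FANCF and FANCL are uncertain, because of exon sequence shared with another gene. In the annotation, 11.3% to 79.7% of their exon bases are shared. Smaller shares occur in others of the 39, the largest in RAD51D (8.01%), RMI2 (7.16%), FANCI (5.90%) and RAD52 (5.56%).

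Single genes moved in both directions. All log2 fold changes are differences of group means of log2(FPKM + 1), given with their standard error, and a gene is called at a Benjamini-Hochberg adjusted p under 0.05 over all tested genes. In KO1, 14 of the 39 genes rose (35.9%, beside 35.6% of all tested genes) and 12 fell (30.8%, beside 31.9%). In KO2, 11 rose (28.2%, beside 38.1%) and 16 fell (41.0%, beside 26.6%). The KO2 shares depended on scaling. Over all tested genes, 58.9% of the KO2 calls were higher, against 52.9% after median centring and 50.8% after quantile normalization. For the 39 genes that share was 40.7%, 37.9% and 37.9%. The median log2 fold change was 0.04 in KO1 and -0.01 in KO2, beside 0.02 and 0.06 over all tested genes. KO1 and KO2 share the WT libraries as controls, so these pairs of counts are not independent. For the mean of both edited lines against WT, 14 rose, 15 fell and 10 were not called, beside 38.6% and 30.7% of all tested genes. In 11 genes all 6 edited libraries lay above all 3 WT libraries, and in 9 all lay below, beside 30.7% and 23.8% of all tested genes. Changes were mostly small: the median size was 0.23 in KO1 and 0.24 in KO2, beside 0.30 and 0.27 for all tested genes. Called changes of at least 0.5 numbered 4 higher and 3 lower in KO1, beside 15.3% and 12.6% of all tested genes, and 3 higher and 3 lower in KO2, beside 15.4% and 9.38%.

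**Figure D1:**
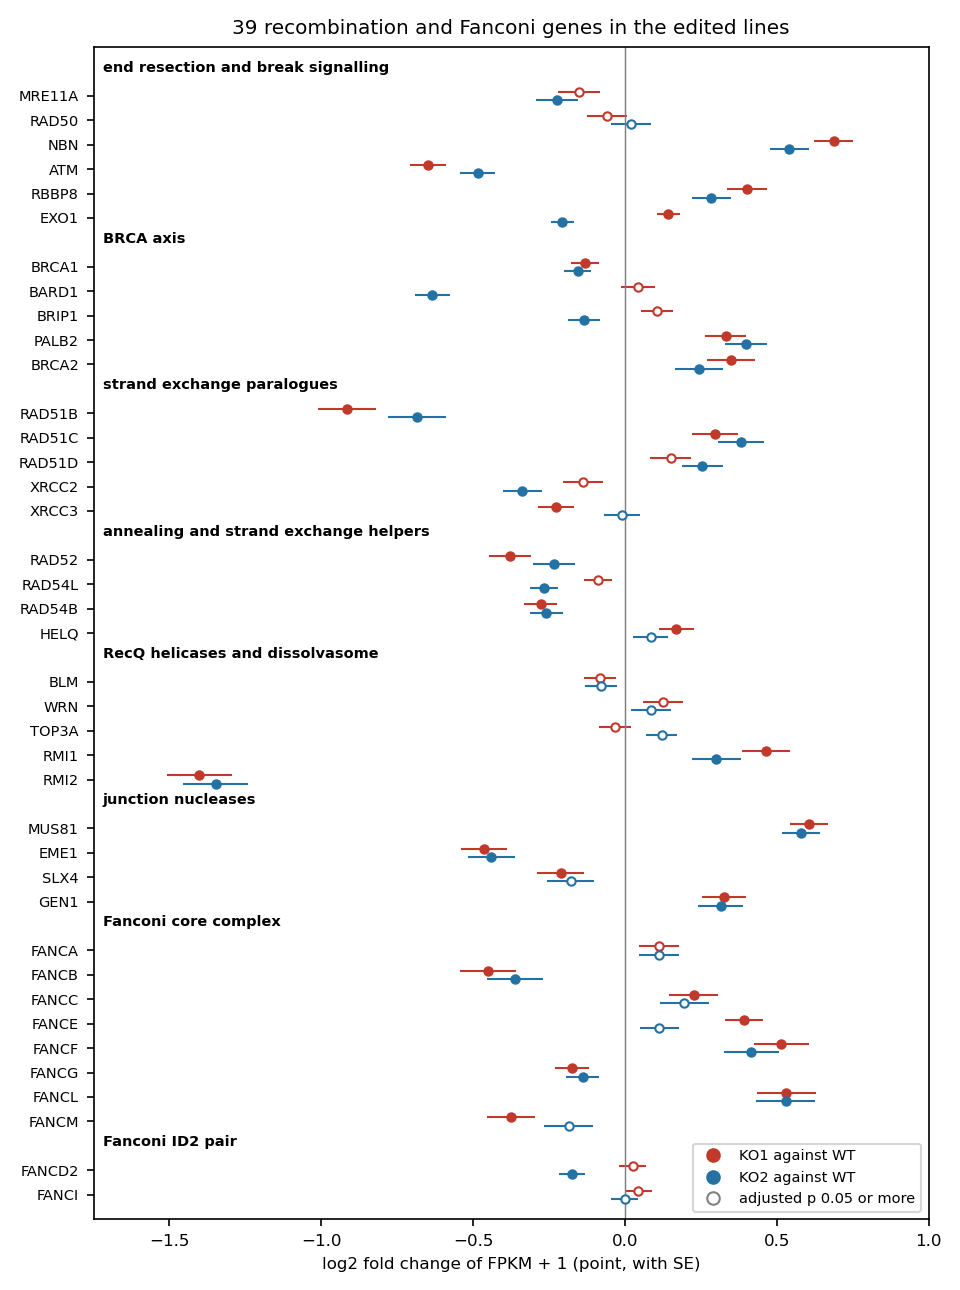
Log2 fold change of FPKM + 1 (x axis; point, with SE) for each of the 39 genes, ordered by role, in KO1 (red) and KO2 (blue) against 3 WT libraries; open points have an adjusted p of 0.05 or more. RMI2 lies near -1.4 in both lines, ATM and RAD51B fell and NBN and MUS81 rose in both, and BARD1 fell in KO2.

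The resection and break signalling group holds the MRE11-RAD50-NBN complex that binds a broken end, the kinase ATM that it activates, and the factors that trim the end. Of its 6 genes, 3 were higher and 1 lower in KO1, and 2 were higher and 3 lower in KO2. NBN, the signalling subunit of the complex, was at 28.4, 25.3 and 25.0 FPKM in WT, 40.3, 42.3 and 46.0 in KO1, and 38.3, 36.9 and 40.5 in KO2. Every edited library lay above every WT library, and NBN rose by 0.69 ± 0.06 (adjusted p = 4.26e-06) in KO1 and 0.54 ± 0.06 (3.21e-05) in KO2 on the log2 scale. MRE11A, the nuclease of the same complex, was at 20.1, 18.9 and 18.6 FPKM in WT, 15.6, 17 and 19.2 in KO1, and 15.9, 16.2 and 16.8 in KO2. The KO2 libraries lay below WT while the KO1 libraries overlapped it. The MRE11A log2 fold change was -0.22 ± 0.07 in KO2 (adjusted p = 0.0156; 0.0524 without KO2 replicate 1) and -0.15 ± 0.07 in KO1 (0.0749; 0.00776 without KO1 replicate 3). RAD50, the ATPase that holds the ends, gave log2 fold changes of -0.06 in KO1 and 0.02 in KO2 and was not called. The NBN to MRE11A ratio of FPKM was therefore 1.34 to 1.41 in WT, 2.40 to 2.58 in KO1 and 2.28 to 2.41 in KO2.

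ATM stood at 14.6, 14.0 and 15.9 FPKM in WT, 8.93, 9.07 and 9.27 in KO1, and 9.95, 10.2 and 10.8 in KO2. No edited library reached a WT library, with log2 fold changes of -0.65 ± 0.06 (adjusted p = 3.19e-06) in KO1 and -0.49 ± 0.06 (3.49e-05) in KO2. KO1 and KO2 themselves differed for ATM by 0.16 ± 0.06 (KO2 minus KO1), with an adjusted p of 0.0569 that became 0.0466 without WT replicate 3. NPAT, a regulator of histone genes whose start lies 158 bases from that of ATM on the opposite strand, had log2 fold changes of 0.03 (adjusted p = 0.611) and -0.05 (0.441). RBBP8, also called CtIP, which starts resection with MRE11, was at 67.1, 59.0 and 58.2 FPKM in WT, 80.0, 77.1 and 87.3 in KO1, and 74.6, 71.6 and 78.5 in KO2. All edited libraries lay above WT, and it rose by 0.40 ± 0.06 (adjusted p = 0.000245) and 0.28 ± 0.06 (0.00281). EXO1, the exonuclease of long-range resection, was called in both lines in opposite directions, at 0.14 ± 0.04 in KO1 (adjusted p = 0.00648) and -0.21 ± 0.04 in KO2 (0.000712).

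**Figure D2:**
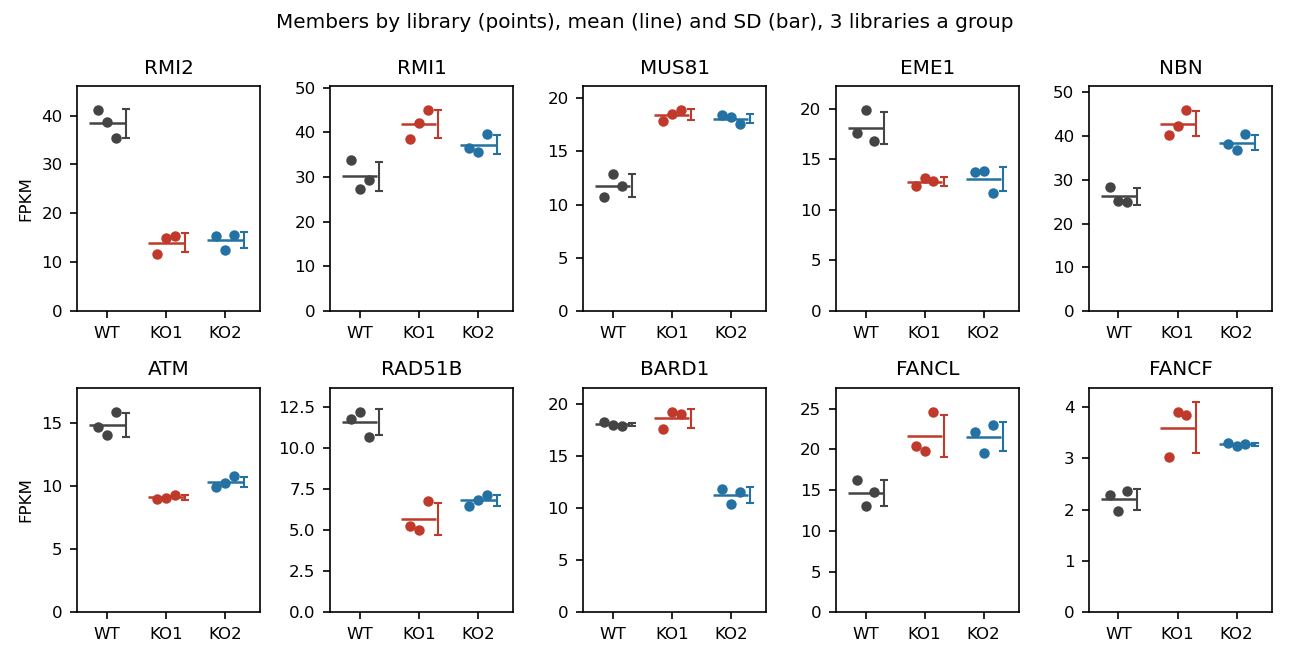
FPKM (y axis, from 0) of 10 genes in each library, with points for the 3 libraries of WT, KO1 and KO2, a line for the mean and a bar for the SD. RMI2, ATM, RAD51B and EME1 lie lower and RMI1, NBN, MUS81, FANCL and FANCF higher in all 6 edited libraries than in WT, whereas BARD1 lies lower in KO2 only.

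The BRCA axis joins break recognition to strand invasion: BRCA1 with its partner BARD1, the helicase BRIP1, the bridge PALB2, and BRCA2. All 5 genes were called in KO2, 2 higher and 3 lower, and in KO1 2 were higher and 1 lower. PALB2 was at 14.1, 12.1 and 13.2 FPKM in WT, 15.9, 16.2 and 18.4 in KO1, and 17, 17.9 and 18.0 in KO2. It was above WT in all 6 edited libraries, by 0.33 ± 0.07 (adjusted p = 0.00144) and 0.40 ± 0.07 (0.000469) on the log2 scale. BRCA2 had 14.2, 12.3 and 15 FPKM in WT, 17.6, 16.8 and 19.2 in KO1, and 16.2, 15.6 and 17.7 in KO2. These groups did not overlap with WT either, and BRCA2 rose by 0.35 ± 0.08 (adjusted p = 0.00246) and 0.24 ± 0.08 (0.0191). The KO2 call of BRCA2 was lost without WT replicate 2 or without KO2 replicate 3 (adjusted p = 0.0752 to 0.0776).

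BARD1, which forms the ubiquitin ligase with BRCA1 and stabilises it, separated the edited lines. It was at 18.2, 18.0 and 17.9 FPKM in WT, 17.6, 19.2 and 19 in KO1, and 11.8, 10.4 and 11.5 in KO2. KO1 overlapped WT (log2 fold change 0.04 ± 0.06, adjusted p = 0.527), and every KO2 library lay far below both (-0.63 ± 0.06 against WT, 4.35e-06; -0.68 ± 0.06 against KO1, 1.56e-05). BRCA1 itself moved little, from 29.4 ± 1.07 FPKM in WT to 26.8 ± 1.10 in KO1 and 26.3 ± 0.0628 in KO2 (SD, n = 3 each). It was called lower in both lines, at -0.13 ± 0.05 in KO1 (adjusted p = 0.0239) and -0.16 ± 0.05 in KO2 (0.0114). The KO1 call of BRCA1 was lost without WT replicate 2 or 3 and without KO1 replicate 1 or 2 (adjusted p = 0.0746 to 0.0822). The BARD1 to BRCA1 ratio of FPKM was 0.594 to 0.646 in WT, 0.673 to 0.736 in KO1 and 0.398 to 0.449 in KO2. BRIP1 was called lower in KO2 (-0.13 ± 0.05, adjusted p = 0.0434), and that call was lost on leaving out any library other than WT replicate 2 or KO1 replicate 3 (0.0502 to 0.131).

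The 5 paralogues of strand exchange form complexes that help the invading filament assemble, RAD51B, RAD51C, RAD51D and XRCC2 in one and RAD51C with XRCC3 in the other. In KO1, 1 rose and 2 fell, and in KO2 2 rose and 2 fell. RAD51B was at 11.8, 12.2 and 10.7 FPKM in WT, 5.27, 5.03 and 6.80 in KO1, and 6.46, 6.86 and 7.14 in KO2. It was lower in every edited library, by log2 fold changes of -0.92 ± 0.10 (adjusted p = 1.02e-05) and -0.68 ± 0.10 (0.000107). Its edited lines differed by 0.23 ± 0.10 (KO2 minus KO1; adjusted p = 0.093, and 0.00897 without KO1 replicate 3). RAD51C, present in both complexes, was at 35.0, 32.1 and 31.6 FPKM in WT, 39.3, 42.6 and 40.1 in KO1, and 40.9, 39.9 and 49.3 in KO2. All edited libraries were above WT, and RAD51C rose by 0.30 ± 0.08 (adjusted p = 0.00548) and 0.38 ± 0.08 (0.00125). XRCC2 was at 18.4, 17.6 and 17.5 FPKM in WT, 15.1, 15.5 and 17.9 in KO1, and 13.9, 14.4 and 13.3 in KO2. KO2 lay below both other groups, with a log2 fold change of -0.34 ± 0.06 against WT (adjusted p = 0.000948), and KO1 overlapped WT (-0.14 ± 0.06, 0.0795). The XRCC2 value in KO1 turned on replicate 3, without which the adjusted p was 0.00757.

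RAD51D was called higher in KO2 (0.25 ± 0.07, adjusted p = 0.00696) and had a log2 fold change of 0.15 ± 0.07 in KO1 (0.0697; 0.0408 without KO1 replicate 3). XRCC3 was called lower in KO1 (-0.23 ± 0.06, adjusted p = 0.00594) and was level with WT in KO2 (-0.01 ± 0.06, 0.904). The genes of the complex with 4 members thus changed unequally: RAD51B fell and RAD51C rose in both lines, and the XRCC2 to RAD51D ratio of FPKM was 1.90 to 2.17 in WT, 1.39 to 1.92 in KO1 and 1.25 to 1.32 in KO2. For the XRCC3 and RAD51C pair the ratio was 0.391 to 0.478 in WT, 0.282 to 0.322 in KO1 and 0.310 to 0.346 in KO2.

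Of the 4 annealing and strand exchange helpers, 1 was higher and 2 lower in KO1, and 0 were higher and 3 lower in KO2. RAD52, which anneals single strands, was at 7.48, 6.78 and 7.50 FPKM in WT, 5.76, 5.18 and 5.11 in KO1, and 6.19, 5.64 and 6.23 in KO2. All edited libraries were below WT, by -0.38 ± 0.07 (adjusted p = 0.000649) and -0.23 ± 0.07 (0.0127; 0.0532 without KO2 replicate 2). RAD54B, a motor of strand exchange, was at 30.2, 26.4 and 29 FPKM in WT, 22.4, 23.6 and 24.0 in KO1, and 23.3, 23.3 and 24.3 in KO2. It fell without overlap, with log2 fold changes of -0.28 ± 0.05 (adjusted p = 0.00106) and -0.26 ± 0.05 (0.00184). Its relative RAD54L was called in KO2 (-0.27 ± 0.05, adjusted p = 0.000478) and not in KO1 (-0.09 ± 0.05, 0.116; 0.0474 without WT replicate 1). HELQ, a helicase, was called higher in KO1 (0.17 ± 0.06, adjusted p = 0.0231), a call lost without WT replicate 3, KO1 replicate 1 or KO1 replicate 3 (0.0601 to 0.0772).

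The dissolvasome, in which the helicase BLM, the topoisomerase TOP3A and the small subunits RMI1 and RMI2 take double Holliday junctions apart without crossing over, held the gene with the largest change of the 39. RMI2, which with RMI1 stabilises the complex, was at 41.1, 38.8 and 35.4 FPKM in WT, 11.7, 14.8 and 15.4 in KO1, and 15.4, 12.6 and 15.6 in KO2. The groups were far apart, and the log2 fold change was -1.40 ± 0.11 (adjusted p = 8.86e-07) in KO1 and -1.35 ± 0.11 (1.59e-06) in KO2, the 156th and 128th largest falls among the 11737 tested genes. KO1 and KO2 differed for RMI2 by 0.05 ± 0.11 (adjusted p = 0.739). RMI1 went the other way, at 33.8, 27.3 and 29.3 FPKM in WT, 38.6, 42.0 and 45.0 in KO1, and 36.5, 35.6 and 39.6 in KO2. Every edited library was above WT, and RMI1 rose by 0.46 ± 0.08 (adjusted p = 0.000411) and 0.30 ± 0.08 (0.00706). The RMI1 to RMI2 ratio of FPKM was 0.822, 0.705 and 0.828 in WT, 3.30, 2.83 and 2.92 in KO1, and 2.37, 2.83 and 2.54 in KO2, above 1 in all 6 edited libraries and below 1 in all WT libraries.

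The larger subunits of the dissolvasome were not called in either line. BLM had log2 fold changes of -0.08 ± 0.05 in both lines (adjusted p = 0.186 and 0.205), and TOP3A of -0.03 ± 0.05 in KO1 (0.594) and 0.12 ± 0.05 in KO2 (0.0606; 0.0345 without WT replicate 3). WRN, the RecQ helicase lost in Werner syndrome, was at 15.9, 14.8 and 15.8 FPKM in WT, 16.1, 16.1 and 19 in KO1, and 16.7, 15.9 and 17 in KO2. Its KO2 libraries overlapped WT and its log2 fold changes of 0.13 ± 0.07 and 0.09 ± 0.07 were not called (adjusted p = 0.115 and 0.282). Without KO1 replicate 3, its highest library, the WRN log2 fold change in KO1 was 0.05. With RMI1 higher and RMI2 lower in each line, the 5 genes of this group gave 1 call in each direction.

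**Figure D3:**
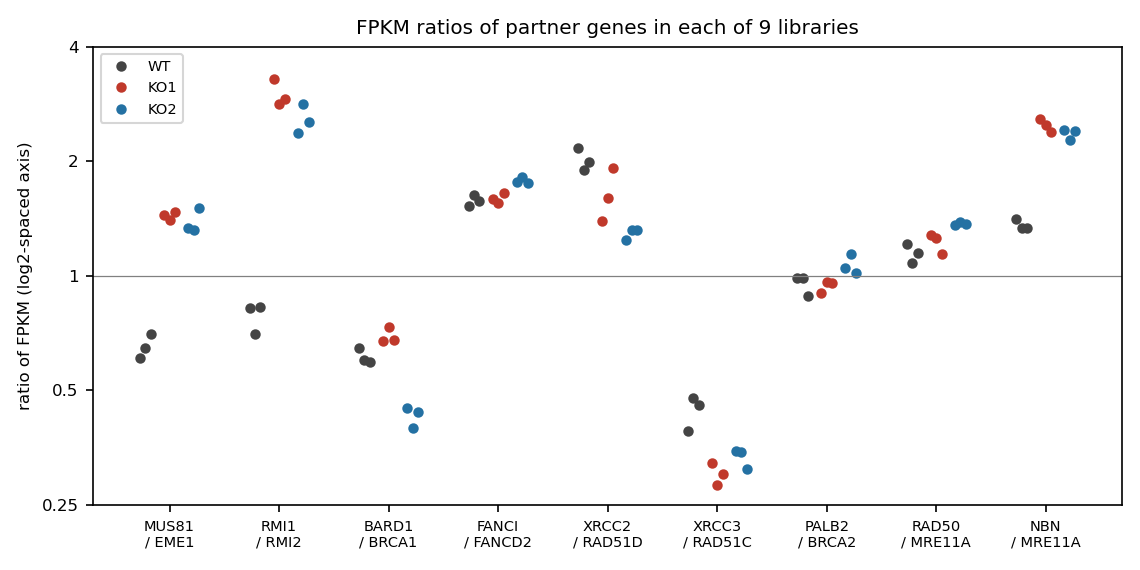
Ratio of FPKM (y axis, log2-spaced) of 9 pairs of genes in each of the 9 libraries, WT in grey, KO1 in red and KO2 in blue. MUS81 to EME1 and RMI1 to RMI2 lie below 1 in the 3 WT libraries and above 1 in the 6 edited ones, BARD1 to BRCA1 is lowest in KO2, and PALB2 to BRCA2 stays between 0.885 and 1.14.

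The nucleases cut junctions that were not dissolved, and of their 4 genes 2 were higher and 2 lower in KO1, and 2 higher and 1 lower in KO2. MUS81, the catalytic partner of the MUS81-EME1 nuclease, was at 10.7, 12.8 and 11.8 FPKM in WT, 17.9, 18.5 and 18.9 in KO1, and 18.4, 18.2 and 17.6 in KO2. It rose without overlap, by 0.61 ± 0.06 (adjusted p = 8.85e-06) and 0.58 ± 0.06 (1.54e-05). EME1, its non-catalytic partner, was at 17.6, 19.8 and 16.8 FPKM in WT, 12.3, 13.2 and 12.8 in KO1, and 13.7, 13.8 and 11.7 in KO2. EME1 was lower in all 6 edited libraries, with log2 fold changes of -0.46 ± 0.08 (adjusted p = 0.000309) and -0.44 ± 0.08 (0.00051). The MUS81 to EME1 ratio of FPKM rose from 0.610, 0.647 and 0.702 in WT to 1.45, 1.41 and 1.47 in KO1 and 1.34, 1.32 and 1.51 in KO2.

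GEN1, a resolvase that cuts Holliday junctions by itself, was at 10.2, 9.44 and 9.80 FPKM in WT, 11.7, 11.8 and 14.2 in KO1, and 12.3, 12.0 and 13.0 in KO2. Its edited libraries all lay above WT, by 0.33 ± 0.07 (adjusted p = 0.00243) and 0.31 ± 0.07 (0.00327). SLX4, the scaffold on which several of these nucleases sit, was called lower in KO1 (-0.21 ± 0.08, adjusted p = 0.0327) but not in KO2 (-0.18 ± 0.08, 0.066). The KO1 call of SLX4 was lost without WT replicate 2 or 3 and without KO1 replicate 2 or 3 (adjusted p = 0.0818 to 0.113), and SLX4 was called in KO2 without WT replicate 1 or KO1 replicate 1 (0.0368 to 0.0480). It was also called in KO2 after quantile normalization (0.00847) or median centring (0.0267).

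The Fanconi core complex is an assembled ubiquitin ligase whose catalytic subunit is FANCL, and its subunits moved unequally. Of its 8 genes, 4 rose, 3 fell and 1 was not called in KO1, and 2 rose, 2 fell and 4 were not called in KO2. FANCL was at 16.2, 13.0 and 14.7 FPKM in WT, 20.5, 19.8 and 24.6 in KO1, and 22.1, 19.5 and 23.0 in KO2. It was above WT in all 6 edited libraries, by 0.53 ± 0.10 in each line (adjusted p = 0.000626 and 0.000715). FANCB, which with FANCL and FAAP100 makes the catalytic module, was at 6.20, 5.70 and 6.93 FPKM in WT, 4.11, 4.14 and 4.70 in KO1, and 4.68, 4.11 and 5.22 in KO2. It was below WT in all of them, with log2 fold changes of -0.45 ± 0.09 (adjusted p = 0.00134) and -0.36 ± 0.09 (0.0057).

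FANCC, FANCE and FANCF form the module that holds the substrate. FANCF was at 2.28, 1.97 and 2.37 FPKM in WT, 3.02, 3.91 and 3.85 in KO1, and 3.29, 3.25 and 3.28 in KO2. All edited libraries were higher, by 0.52 ± 0.09 (adjusted p = 0.000503) and 0.42 ± 0.09 (0.00229). FANCE was at 6.98, 7.68 and 6.81 FPKM in WT, 10.0, 9.95 and 9.16 in KO1, and 8.02, 7.88 and 7.55 in KO2. KO1 lay above both other groups (0.39 ± 0.06 against WT, adjusted p = 0.000245), and KO2 overlapped WT (0.11 ± 0.06, 0.136). FANCC was called higher in KO1 (0.23 ± 0.08, adjusted p = 0.0282; lost without WT replicate 2 or 3 and without KO1 replicate 2 or 3, at 0.0619 to 0.0999, and after quantile normalization, at 0.118). In KO2 its log2 fold change was 0.19 ± 0.08 (0.054; 0.00729 without WT replicate 1).

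Of the remaining subunits, FANCA was not called (0.11 ± 0.06 in each line, adjusted p = 0.146 and 0.15). FANCG, which binds FANCA, was called lower in both lines, at -0.17 ± 0.06 in KO1 (adjusted p = 0.0172) and -0.14 ± 0.06 in KO2 (0.0475). The FANCG calls did not hold in all fits that left out a library. The KO1 call was lost without WT replicate 2 or KO1 replicate 3 (0.0538 to 0.0693). The KO2 call was lost on leaving out any library other than WT replicate 1 or 3 (0.0506 to 0.190). Without WT replicate 2 the FANCG log2 fold change was -0.12 in KO1 and -0.08 in KO2. FANCM, the motor that anchors the core complex on DNA, was called lower in KO1 (-0.38 ± 0.08, adjusted p = 0.00173). In KO2 its log2 fold change was -0.19 ± 0.08 (0.0619), and it was called without WT replicate 3 or KO2 replicate 3 (0.0223 to 0.0400), after quantile normalization (0.0206) and after median centring (0.0264).

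The substrate pair of the core complex changed little. FANCI was at 72.0, 69.6 and 70.04 FPKM in WT, 72.8, 69.0 and 76.8 in KO1, and 69.0, 72.8 and 69.7 in KO2. Its 3 groups overlapped, with log2 fold changes of 0.04 ± 0.04 (adjusted p = 0.399) and -0.00 ± 0.04 (0.98). FANCD2, its partner, was at 47.3, 42.7 and 44.4 FPKM in WT, 45.8, 44.5 and 46.5 in KO1, and 39, 39.9 and 39.8 in KO2. KO1 overlapped WT (0.03 ± 0.04, adjusted p = 0.625) and KO2 lay below both (-0.17 ± 0.04 against WT, 0.00521). The FANCI to FANCD2 ratio of FPKM was 1.52 to 1.63 in WT, 1.55 to 1.65 in KO1 and 1.75 to 1.82 in KO2.

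The edited lines were also compared with each other, with the spread still estimated over all 9 libraries. Of the 39 genes, 2 were higher in KO2 than in KO1 (5.13%, beside 18.3% of all tested genes), 7 were lower (17.9%, beside 12.4%) and 30 were not called. Over all tested genes the share of calls that were higher in KO2 was 59.7%, against 47.9% after median centring and 49.0% after quantile normalization. For the 39 genes that share was 22.2%, 12.5% and 11.1%. The 7 lower genes were BARD1 (-0.68 ± 0.06, adjusted p = 1.56e-05), EXO1 (-0.35 ± 0.04, 8.31e-05), FANCE (-0.28 ± 0.06, 0.00715), BRIP1 (-0.24 ± 0.05, 0.00604), FANCD2 (-0.20 ± 0.04, 0.00633), XRCC2 (-0.20 ± 0.06, 0.0394) and RAD54L (-0.18 ± 0.05, 0.0141). XRCC3 (0.22 ± 0.06, 0.0185) and TOP3A (0.15 ± 0.05, 0.0451) were higher.

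Several of these calls were lost in some of the fits that left out a library. XRCC2 lost its call on leaving out any library other than WT replicate 1 or KO1 replicate 1 (adjusted p = 0.0522 to 0.123), and its log2 fold change was -0.13 without KO1 replicate 3. XRCC3 lost its call without KO1 replicate 2, KO1 replicate 3 or KO2 replicate 3 (0.0523 to 0.0735), and RAD54L without KO2 replicate 1 or 2 (0.0501 to 0.0520). TOP3A lost its call in 6 of 9 such fits (without WT replicate 2, KO1 replicate 1 or 2, or any KO2 replicate, 0.0602 to 0.136), after quantile normalization (0.106) and after median centring (0.0969). BARD1, EXO1, FANCE, BRIP1 and FANCD2 kept their calls in all 9 fits that left out a library.

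A list of 20 replication genes of S phase was compared in the same way. Of these, 2 were higher in KO2 than in KO1 (MCM4 and MCM7; 10%, beside 18.3% of all tested genes). Lower were 11 (55%, beside 12.4%), with MCM2, MCM3, MCM6, CDC6, CCNE2, RRM2, TYMS, TK1, E2F2 and E2F8 among them. The median log2 fold change of the list was -0.15, beside 0.04 over all tested genes and -0.01 over the 39 repair genes. TK1, the thymidine kinase that rises in S phase, had means of 18.0 FPKM for WT, 11.8 for KO1 and 7.05 for KO2, with a log2 fold change of -0.67 between the edited lines (adjusted p = 0.000785). Against WT the S-phase list gave 7 higher (35%, beside 35.6% of all tested genes) and 5 lower (25%, beside 31.9%) in KO1. In KO2 it gave 7 higher (35%, beside 38.1%) and 8 lower (40%, beside 26.6%). Neighbouring genes were not looked at for this list, MCM6 (KO2 minus KO1 -0.55, adjusted p = 9.93e-07 by the limma fit) included. A regional shift was therefore not tested for these genes. In bulk RNA, a different share of cells in S phase and a different amount of RNA per cell cannot be told apart. The part of either in the changes of the repair genes was not tested.

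The position of BARD1 was looked at through its neighbours, the 15 nearest tested genes on either side along chromosome 2. Of these 30 genes, 22 were lower in KO2 than in KO1 and 0 higher, with a median log2 fold change of -0.36, and against WT 21 were lower and 2 higher in KO2 (median -0.36). In KO1 the same neighbours gave 11 lower and 11 higher against WT, with a median of -0.03. For the other 8 genes called between the edited lines, the neighbours' median ran from -0.01 (EXO1) to 0.11 (FANCD2), so among the called genes the neighbours of BARD1 stood apart. Genes not called between the lines also had neighbours that moved mostly 1 way. The neighbours of FANCB gave 16 higher and 0 lower in KO2 than in KO1 (median 0.28), and those of BRCA1 11 higher and 1 lower (0.17). The fall of BARD1 (-0.68) was larger than the median of its neighbours. The number of copies of this stretch in KO2 was not measured. Against WT, 9 genes had a neighbour median of their own sign and of at least 0.1 in size in both lines, a minimum set after the values were seen. They were GEN1 (neighbour medians 0.35 in KO1 and 0.29 in KO2), BRCA2 (0.28 and 0.22), RAD51C (0.27 and 0.23), FANCC (0.20 and 0.22), RMI1 (0.17 and 0.12), FANCA (0.13 and 0.15), FANCE (0.10 and 0.18), BRCA1 (-0.30 and -0.18) and XRCC2 (-0.19 and -0.13). The neighbours of FANCB had a median of -0.31 in KO1. The neighbours of RMI2 (0.09 and 0.11), ATM (0.14 and 0.10), EME1 (0.20 and 0.14) and RAD51B (0.03 and 0.12) had medians opposite in sign to those genes' changes. Those of NBN (0.07 and 0.08) shared its direction at a smaller size. The neighbours of MUS81 did so in KO2 (0.13) and not in KO1 (-0.04).

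**Figure D4:**
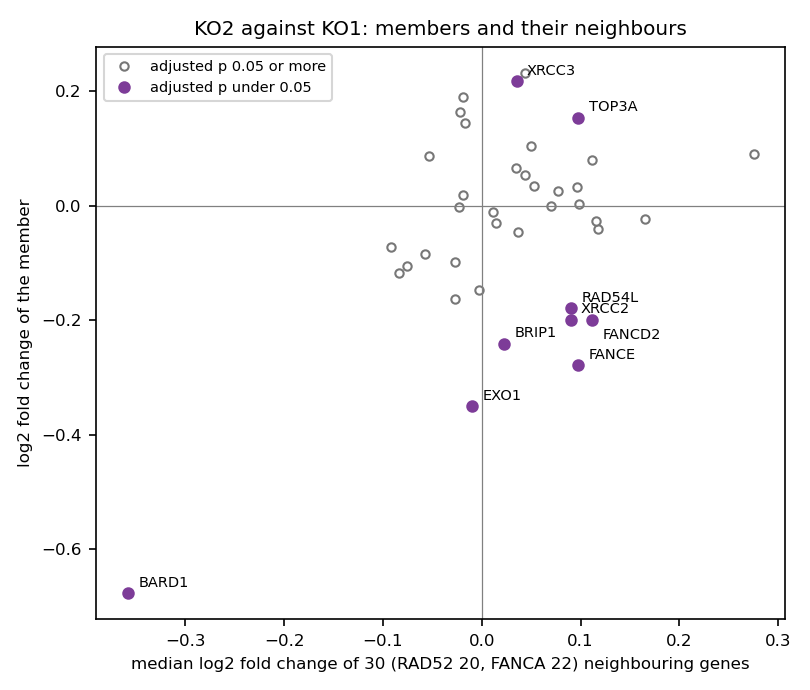
Log2 fold change between the edited lines (KO2 minus KO1) of each of the 39 genes (y axis) against the median over the nearest tested genes on its chromosome (x axis; 30 genes, 20 for RAD52 and 22 for FANCA); filled points have an adjusted p under 0.05. BARD1 lies alone at -0.36 on the x axis and -0.68 on the y axis, while the other 8 called genes have neighbour medians from -0.01 to 0.11.

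Promoters were read for the letters TTTNNCGC, which take in the core that E2F factors of the S-phase programme recognise. The letters were chosen after 7 of the 9 genes that separated the edited lines were seen to be lower. Of the 20 S-phase genes, 11 had also been seen to be lower. BARD1, whose neighbours were also lower, is among the 7. Windows of 300 bases, from 250 before to 50 after each start (RefSeq, GRCh38.p14), were at hand for 34 of the 39 genes and not for NBN, RAD54B, WRN, RMI2 and FANCI. On either strand the letters occurred in 6 of the 34 (17.6%), beside 6.90% of 27305 promoters of the same length. Those promoters were not limited to expressed genes, and the share among the tested genes alone was not counted. The stretches that hold them are given 5′ to 3′ on the gene's strand, with the match in capitals, as TTTNNCGC or as its reverse complement.
EXO1, chr1:241848198-241848225, plus strand: aaggtcagccTTTCGCGCgctgtgtagg
XRCC2, chr7:152676103-152676130, minus strand: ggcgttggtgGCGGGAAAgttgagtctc
FANCD2, chr3:10026425-10026452, plus strand: gtcgggcctgGCGGGAAAgtcgaaaact
GEN1, chr2:17753860-17753887, plus strand: agttgcggggTTTCGCGCcgccggagtc
FANCA, chr16:89816802-89816829, minus strand: ctacaccgcgGCGGCAAAgccaaacgca
FANCC, chr9:95317864-95317891, minus strand: cggggcttccGCGCGAAAccgggaacac
FANCC, chr9:95317738-95317765, minus strand: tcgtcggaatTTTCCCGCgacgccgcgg

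Of the 6 genes with these letters, EXO1, XRCC2 and FANCD2 were lower in KO2 than in KO1 and 0 were higher, with a median log2 fold change of -0.12. Of the 28 without them, 4 were lower and 2 higher, with a median of 0.01. The letters were chosen with these calls known, so the split describes the same calls and is no test. XRCC2 lost its call in 7 of the 9 fits that left out a library. Against WT, the 6 genes gave 3 higher and 0 lower in KO1 and 1 higher and 3 lower in KO2. The matches of EXO1, GEN1, XRCC2 and FANCD2 begin within 22 bases of the start, and those of FANCA and FANCC begin 172 bases before it, with a further match in FANCC at 46 bases before. Other letters occurred at shares nearer to those of all promoters: CCAAT in 13 of 34 (38.2%, beside 35.7%), CACGTG in 4 (11.8%, beside 7.43%) and TTTGAA in 4 (11.8%, beside 15.4%). A match describes letters and is not a measured site.

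Other genes of the pathway, outside the 39, were also mixed. Of 46 listed, 43 were tested (SLX1A, SLX1B and POLN were too low). In KO1, 12 were higher (27.9%, beside 35.6% of all tested genes) and 14 lower (32.6%, beside 31.9%). In KO2, 12 were higher (27.9%, beside 38.1%) and 16 lower (37.2%, beside 26.6%). Between the edited lines, 5 were higher in KO2 than in KO1 (11.6%, beside 18.3%) and 5 lower (11.6%, beside 12.4%). SWI5, which works with SFR1 in strand exchange, stood at 30.1 ± 2.26 FPKM for WT, 11.3 ± 1.38 for KO1 and 15.7 ± 0.336 for KO2, with log2 fold changes of -1.35 (1.71e-07) and -0.90 (4.85e-06). CENPS and CENPX, the histone-fold partners of FANCM, rose by 0.49 and 0.62 in KO1 and by 0.68 and 0.60 in KO2, where FANCM had -0.38 and -0.19. UIMC1, also called RAP80, which brings BRCA1 to ubiquitin at breaks, fell by 0.85 in KO1 and by 0.50 in KO2 on the log2 scale.

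The competing route of end joining was mixed. Of 17 genes, 5 were higher (29.4%, beside 35.6% of all tested genes) and 7 lower (41.2%, beside 31.9%) in KO1 (median -0.02). In KO2, 3 were higher (17.6%, beside 38.1%) and 7 lower (41.2%, beside 26.6%), with a median of -0.04. Between the edited lines, 4 were higher in KO2 than in KO1 (23.5%, beside 18.3%) and 5 lower (29.4%, beside 12.4%), with a median of 0.02. LIG4, the ligase that seals ends in classical end joining, stood at 38 ± 2.75 FPKM for WT, 18.6 ± 1.22 for KO1 and 15.6 ± 0.849 for KO2 (SD, n = 3 each). Its log2 fold changes were -0.99 (adjusted p = 3.60e-07) and -1.24 (1.09e-07). XRCC1, a scaffold of single-strand break repair, and POLQ, the polymerase of microhomology-mediated joining, also fell in both lines, with log2 fold changes of -0.63 and -0.47 for XRCC1 and -0.30 and -0.37 for POLQ. DCLRE1C, the Artemis nuclease that opens hairpin ends, rose in both, by 0.49 and 0.26.

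Some of the 39 genes share exon sequence with a gene on the other strand (GENCODE 29 annotation), and whether the deposited values were counted by strand is not given in the sources used here, so their levels are uncertain. XRCC3 shares 76.7% of its exon bases with KLC1, which was at 33.3, 33.5 and 32.9 FPKM in WT, KO1 and KO2 and was not called. RAD54L shares 25.1% with LRRC41, which was not called against WT either. Partners that rose in both lines were CFL1, which shares 13.9% of the exon bases of MUS81 (445 FPKM in WT, 548 in KO1, 558 in KO2), VRK2, 18.7% of FANCL (2.31, 4.03 and 4.31), GAS2, 11.3% of FANCF (0.804, 6.05 and 7.15), and ZNF276, 23.6% of FANCA. LRRC59 shares 16.4% of EME1 and rose, from 76.0 FPKM in WT to 101 and 113, while EME1 fell. The part of shared reads in the rises of MUS81, FANCL and FANCF was not tested. On the same strand, RAD54B shares 59.1% of its exon bases with FSBP and RAD50 shares 79.7% with AC116366.3.

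Genes that start back to back with one of the 39 (starts within 1000 bases on opposite strands) did not always move with it. Among 15 such pairs, both genes were called in 9 pairs in KO1, 7 in the same direction and 2 in opposite directions. In KO2 both were called in 6 pairs, 4 and 2. Of all tested genes, 67.5% were called in KO1 and 64.7% in KO2. How often other pairs of genes were both called was not counted, so these counts are not read as a trait of such pairs. MRPL27, a mitochondrial ribosomal protein gene whose start is 6 bases from that of EME1, rose by 0.76 in KO1 and 0.77 in KO2 on the log2 scale while EME1 fell. ERC1 rose by 0.38 and 0.45 opposite RAD52, which fell. MOSPD2 fell with FANCB (-0.65 and -0.50), and NBR1 fell more than BRCA1 (-0.74 and -0.79).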

How the data were processed

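The authors deposited 1 table of FPKM values with a column per library, and the submitters' processing notes name Cufflinks 2.2.1, STAR 2.5.0b, bedtools 2.7.0 and hg19, with no role or order. The strandedness of counting, any scaling between libraries and the annotation were not given in the sources used here. Groups and replicate numbers came from the sample titles. Of 26228 rows, 38 held text and were left out, with 0 of the 39 genes among them, and 28 had date-like names. FPKM are not counts, so no counting interval is given. Relative depth, read from steps between low values, was 0.966 to 1.16 of that of WT replicate 3.

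The 11737 genes that reached FPKM 1 in 3 of 9 libraries were fitted as log2(FPKM + 1), which understates changes of low genes, with limma 3.58.1 in R 4.3.3. The fit had 1 mean per group, all 9 libraries, empirical Bayes moderation with a trend and no covariates, and was tested on simulated data. Calls were made at a Benjamini-Hochberg adjusted p under 0.05. Tables were read with Python 3.11.15 and pandas 2.3.3. Every library's value is given for genes called with a log2 fold change of at least 0.5 in any pairwise contrast, and for up to 2 more per role ranked by p in the contrast of both edited lines with WT. At most 4 genes each of the pathway, end joining and S-phase lists were to be described, those with the smallest p there. MCM6 and the S-phase genes given by name alone stand outside that rule. Some genes of these lists and of the marker lists are not reported here. Neighbours follow RefSeq gene order (GRCh38.p14; 98.6% of tested genes placed), with no test. The genes and lists were chosen with earlier results of these data known. Alternatives varied the pseudocount, filter, scaling, moderation, libraries in the fit, replicate block and threshold.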

Additional observations from a re-analysis of the deposited data

Results flagged for a closer look

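The edited lines differed from each other, by limma's test of KO2 against KO1, in 9 of the 39 genes, or 23.1% of them, beside 30.6% of all tested genes. The values are log2 differences, KO2 minus KO1. In end resection, EXO1 differed by -0.35. In the BRCA axis, BARD1 differed by -0.68 and BRIP1 by -0.24. Among the paralogues of strand exchange, XRCC2 differed by -0.20 and XRCC3 by 0.22. RAD54L, a strand exchange motor, differed by -0.18, and TOP3A of the dissolvasome by 0.15. In the Fanconi genes, FANCE differed by -0.28 and FANCD2 by -0.20. EXO1 was called higher in KO1 and lower in KO2 against WT.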

How the results depend on the processing

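No called change of the 39 genes changed sign under any alternative run. In KO1 21 of 26 calls, in KO2 21 of 27, and between the edited lines 5 of 9 held under all of them, the threshold of 0.01 included. The count higher in KO2 than in KO1 (2) was 1 after quantile normalization, median centring or without the mean-variance trend, 0 at an adjusted p under 0.01, and 0 to 3 when a library was left out. Over all tested genes, 1168 were higher and 932 lower in KO2 than in KO1 at an adjusted p under 0.01, against 2146 and 1450. With the replicate block, 14 genes rose and 11 fell in KO1, 11 and 15 in KO2, and 2 and 6 in KO2 against KO1. It ended the calls of SLX4 in KO1 (adjusted p = 0.0601), BRIP1 in KO2 (0.0675) and XRCC2 between the edited lines (0.0753). Same-numbered libraries did not deviate together across all groups (correlations of -0.287 to 0.318, beside -0.266 to 0.343 for different numbers, and 7 of 18 best matches had the same number). For WT with KO2 the same-number correlations were 0.318, 0.0330 and 0.232, and for WT with KO1 -0.287, -0.0767 and -0.206. No pairing by number was seen over the 3 groups, and a batch shared by some groups was not tested. Leaving out a library gave 12 to 14 genes higher and 9 to 13 lower in KO1, and 10 to 12 and 13 to 16 in KO2. Each genotype is 1 line with 3 libraries, so small changes were called only where replicates were tight. The causes of these changes with the settings were not tested.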
